A study of Rattus norvegicus with 14 samples.

Results

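Messenger RNA of 41 DNA repair genes was measured in colonocytes, the epithelial cells lining the colon, of rats on a diet of normal (NPD) or high (HPD) protein content. The genes were all those of a list of 46 that had a probe bearing their symbol on the array, out of 26276 gene names measured. They were sorted by route: 16 belonged to base excision repair, 10 to nucleotide excision repair, 2 to mismatch repair, 12 to double-strand break repair and 1 to direct reversal. The symbols Ddb2, Ercc2, Ercc4, Msh6 and Prkdc were on the list and matched no probe name, so these genes were not analysed here.

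The rats were male Wistar animals, an outbred strain, and ate the NPD (14% of energy as protein) or the isocaloric HPD (55%) for 15 days, with milk protein replacing part of the starch and sucrose. Each group held 7 rats, and each rat gave 1 array hybridised with Cy3-labelled RNA. Colonocytes were detached with EDTA from the colon without its last segment. In such bulk samples fewer cells of a type and less RNA per cell cannot be told apart.

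Cells repair DNA by several routes that divide the work by the kind of lesion. Base excision repair removes small base changes, such as oxidised, deaminated or alkylated bases, with a glycosylase that cuts out the base before the backbone is opened, filled and sealed. Nucleotide excision repair cuts out a stretch of strand around a bulky lesion, mismatch repair corrects replication errors, and breaks of both strands are rejoined by end joining or by recombination. The colonic epithelium renews itself throughout life and faces compounds from the lumen, including products of bacterial protein fermentation.

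What the array reads is a short stretch of each transcript. The 60-base probes of the 6 lower genes described below whose probe holds a reading frame free of stop codons are shown, because every value of those genes rests on that stretch alone. They are written 5′ to 3′ in the sense of the transcript, in lower case throughout, with positions on the rn4 build named in the array files.
Ung: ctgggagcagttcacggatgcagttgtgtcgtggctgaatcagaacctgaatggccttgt
Nthl1: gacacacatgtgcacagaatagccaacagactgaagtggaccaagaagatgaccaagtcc
Ddb1: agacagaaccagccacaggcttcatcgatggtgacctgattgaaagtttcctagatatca
Xab2: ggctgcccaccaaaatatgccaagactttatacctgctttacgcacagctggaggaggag
Pms2: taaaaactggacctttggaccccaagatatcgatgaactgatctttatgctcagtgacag
Nhej1: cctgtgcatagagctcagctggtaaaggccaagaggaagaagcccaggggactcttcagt
The Ung probe lies on the minus strand at chr12:43522521-43522580, that of Nthl1 on the plus strand at chr10:13889375-13889434 and that of Ddb1 on the plus strand at chr1:213119630-213119689. The Xab2 probe spans 164 bases of the genome, chr12:2544036-2544199 on the plus strand, more than its 60 bases, as a probe across a splice junction does. The Pms2 probe lies at chr12:11009027-11009086 and the Nhej1 probe at chr9:74309548-74309607, both on the minus strand. The GC content of the 41 probes ran from 35% to 55.0%, with a median of 43.3%.

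Signals are given as log2 signal above the median of the same array, so that 1 unit is a doubling, and changes as HPD minus NPD on the same log2 scale. The arrays correlated between 0.970 and 0.992 over all probes, and 18839 to 20976 of 30367 probes were well above background. The median signal of the arrays before centring was 84.4 ± 11.2 (SD, n = 7) in NPD and 66.0 ± 7.11 (SD, n = 7) in HPD (exact two-sided permutation test, p = 0.00525, and 0.00490 when arrays were regrouped only within slides), and its part in the results below was not tested. The arrays came from 2 slides, and each slide held both diets: NPD 1 to 4 and HPD 1 to 3 on slide 1, and NPD 5 to 7 and HPD 4 to 7 on slide 2. Each slide had its own scan date and its own rats, so slide, scan and rats cannot be told apart. Absorptive markers were present in both groups, and their summed level differed by 0.06 (exact permutation test, p = 0.551). Of these 12 genes 9 had positive and 3 negative values, and Slc26a3 had 0.33 (exact permutation test, p = 0.0291, limma q = 0.438).

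With the scanner software's background subtraction and diet as the only term, no repair gene passed the study's threshold, an adjusted p-value (q) below 0.1 in limma over all probes. In that fit 0.0533% of all genes were called at that threshold. The count of repair genes depended on the processing: 7 to 9 passed, all lower in HPD, in 3 other settings given at the end. In those settings 10.5% to 28% of all genes were called, in either direction. At an unadjusted limma p below 0.05, which over all genes 5.48% met with a lower and 6.05% with a higher level in HPD, 7 of the 41 repair genes were lower (17.1%) and 1 was higher (2.44%). The lower ones were Ung and Nthl1 of base excision repair, Ddb1, Xab2 and Ercc8 of nucleotide excision repair, Pms2 of mismatch repair and Nhej1 of end joining. The higher one was Mutyh of base excision repair. Their q-values lay between 0.417 and 0.436, and their diet ranges overlapped in all 8. The count of 8 (19.5%, against 11.5% of all genes) became 5 without NPD 2 (12.2%, against 7.63%), and 5 without HPD 4 (12.2%, against 8.56%). The study itself reported Ung, Ddb1, Xab2, Nhej1 and Ogg1 as significantly lower in HPD in these same rats. It also called far more genes at its threshold than the first fit did here, and the cause of this difference was not tested. As the study had picked those genes out of the same data, their presence here is no independent evidence of a direction.

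The list as a whole did not lie to one side of 0. Of the 41 genes 20 had a negative and 21 a positive log2 fold change, and the median was 0.0040, with values from -0.54 to 0.34. Over all genes 35% had a negative value and the median was 0.11. Among the 38 repair genes well above background on every array of a diet, 19 (50%) were negative and 7 had an unadjusted p below 0.05 on the lower side, against 41.8% and 8.29% of the 16060 genes that met the same condition. On the higher side 1 of the 38 had such a p, against 5.57% of those genes. Over the processing settings tried the median of the 41 genes ranged from -0.11 to 0.07 and the number below 0 from 17 to 32. The list thus has no settled direction against 0. Beside all genes it lay lower in each setting, with a larger share below 0 and a lower median. The shares were 51.2% against 48.8% with cyclic loess, and 78% against 41.9% with normexp background correction and a term for slide. This difference from all genes was not tested. The list includes Ung, Ddb1, Xab2, Nhej1 and Ogg1, all negative, which the study had picked from these same data. The difference is therefore no independent evidence of a direction.

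**Figure D1:**
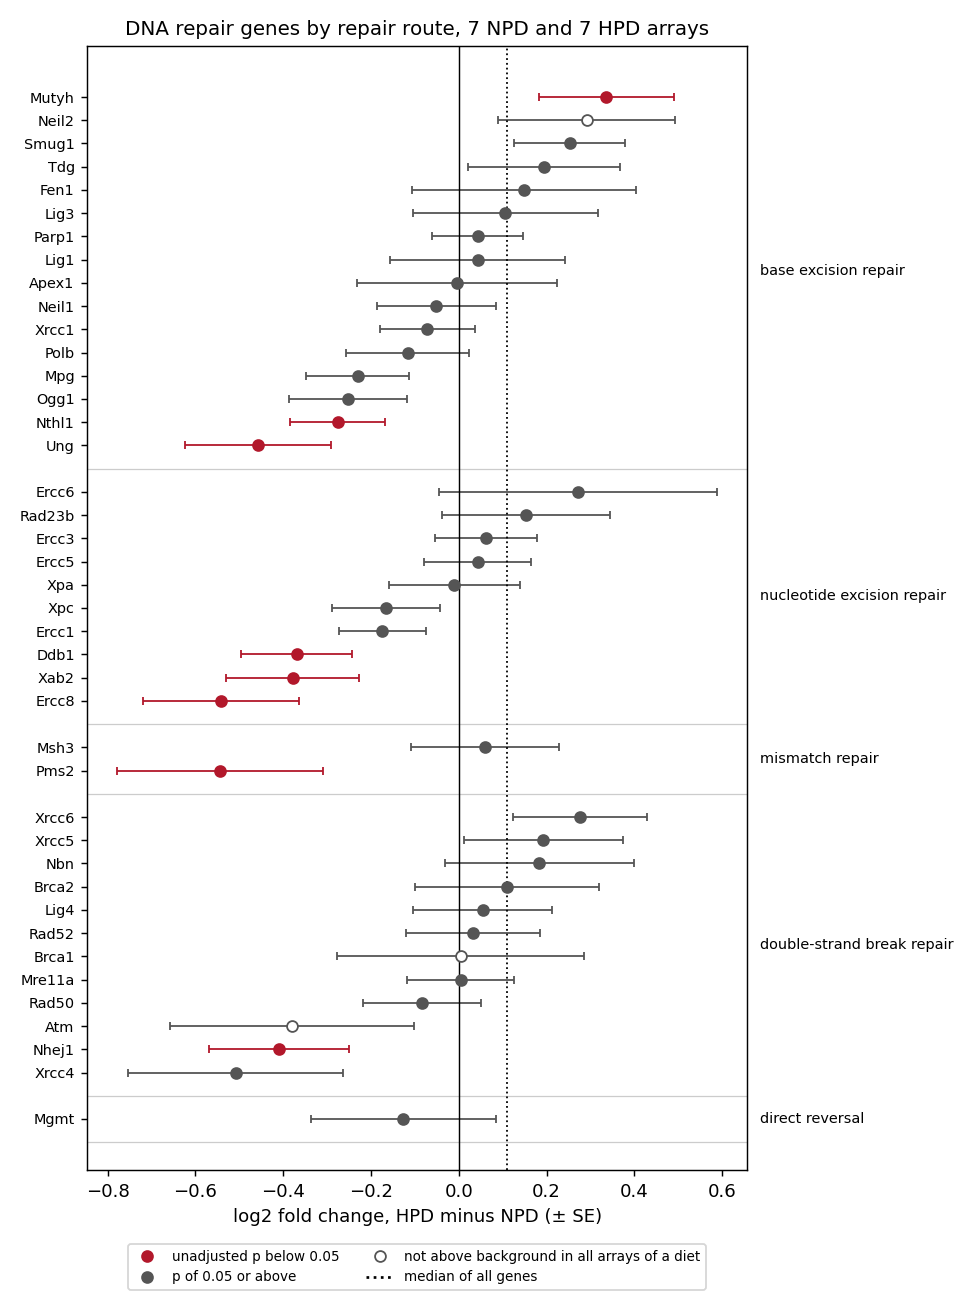
Log2 fold change (HPD minus NPD, horizontal axis) of each repair gene with its standard error, grouped by route, from 7 NPD and 7 HPD arrays. Red points have an unadjusted p below 0.05, open points were not above background on all arrays of either diet, and the dotted line is the median of all genes, 0.11. Each of the 4 main routes holds genes on both sides of 0.

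Base excision repair starts with glycosylases, and the values of these had different signs. Ung, which removes uracil from DNA, ranged from 1.53 to 2.44 in NPD (median 2.27) and from 1.17 to 1.95 in HPD (median 1.70). All 7 HPD arrays lay below the NPD mean, as in 3.64% of all genes, but NPD 1 and NPD 5 lay within the range of the HPD arrays, so the groups overlapped. The log2 fold change was -0.46 ± 0.17 (SE; exact permutation test, p = 0.0198, limma q = 0.417), a level 27.1% lower.

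Nthl1, which removes oxidised pyrimidines, ranged from 1.82 to 2.27 in NPD (median 2.01) and from 1.56 to 1.89 in HPD (median 1.74). Of the 7 HPD arrays 5 were below every NPD array, and all 7 were below the NPD mean. Its log2 fold change was -0.28 ± 0.11 (SE; exact permutation test, p = 0.00758, limma q = 0.417).

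Mutyh, which removes adenine paired with 8-oxoguanine, was the one gene of the list on the higher side at that p. It ranged from 2.54 to 3.42 in NPD (median 2.98) and from 2.99 to 3.80 in HPD (median 3.25), and its log2 fold change was 0.34 ± 0.15 (SE; exact permutation test, p = 0.039, limma q = 0.436). All 7 HPD arrays were above the NPD mean, as in 4.28% of all genes, while 1 was above every NPD array.

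**Figure D2:**
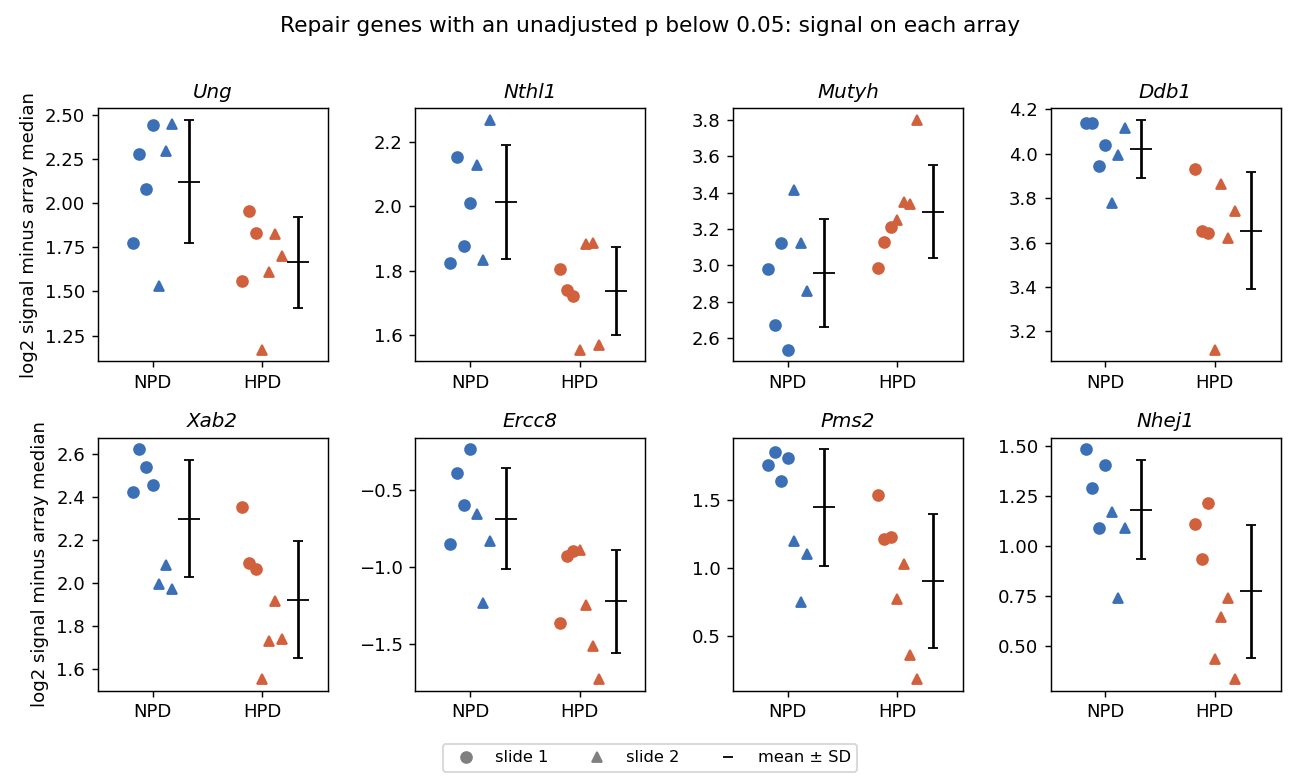
Log2 signal minus the array median (vertical axis, its range differing between panels) of the 8 repair genes with an unadjusted p below 0.05, 1 point per array, with circles for slide 1 and triangles for slide 2 and the mean ± SD beside each group of 7. The ranges of the diets overlap in every panel, and for Xab2 and Pms2 the NPD arrays of slide 2 lie below those of slide 1.

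The other glycosylases had an unadjusted limma p of 0.05 or above, though the exact test of single genes over the splits of the arrays gave lower values for some. Ogg1, which removes 8-oxoguanine, had a log2 fold change of -0.25 (exact permutation test, p = 0.0618), with 4 HPD arrays below every NPD array. Mpg, which removes alkylated purines, had -0.23 (exact permutation test, p = 0.0361). On the positive side, Smug1, another uracil glycosylase, had 0.25 (exact permutation test, p = 0.0408), and Tdg, which removes thymine and uracil opposite guanine, had 0.19. Neil1, a glycosylase for oxidised bases, had -0.05. Its relative Neil2 was not well above background on any array, so that no fold is given.

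The genes acting after the glycosylases had small values, which does not show them to be unchanged. The 95% confidence interval ran from -0.50 to 0.49 for Apex1, from -0.41 to 0.70 for Fen1 and from -0.18 to 0.27 for Parp1. Apex1, the endonuclease that cuts at the emptied site, had a log2 fold change of -0.0035, and Polb, the polymerase that fills the gap, had -0.12, with -0.03 from a second, dimmer probe. The scaffold Xrcc1 had -0.07 and its ligase partner Lig3 0.11. Parp1, which binds strand breaks, had 0.04, the ligase Lig1 0.04 and the flap nuclease Fen1 0.15. Fen1 and Apex1 varied more between arrays than most, with an SD of 0.52 and 0.45 in NPD. Their NPD arrays of slide 2 were 0.71 (Fen1) and 0.74 (Apex1) higher than those of slide 1. Parp1, measured by 10 spots like Fen1, had an SD of 0.15.

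Glycosylases for related lesions were also set against each other on the same arrays, a comparison chosen after the values were seen and given with no test. The log2 signal of Ung exceeded that of Smug1 by 0.82 ± 0.43 (SD, n = 7) in NPD and by 0.11 ± 0.31 in HPD. The difference between Nthl1 and Mutyh was -0.95 ± 0.38 in NPD and -1.56 ± 0.33 in HPD, with 6 of 7 HPD arrays below every NPD array. Such differences within an array do not depend on how the array was centred.

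In nucleotide excision repair 3 of 10 genes were lower at an unadjusted p below 0.05, against 5.48% of all genes, and 6 of 10 had negative values, against 35%. Of those 3, Ddb1 and Xab2 had been picked by the study from these same data. The median over its genes was -0.09. On each array, the median deviation of its genes from their NPD means was taken. It lay between -0.24 and -0.05 on the 7 HPD arrays and between -0.09 and 0.12 on the 7 NPD arrays. For the 2 mismatch repair genes this median, which is their mean, was also below 0 on all 7 HPD arrays, from -0.39 to -0.07. It ran from -0.38 to 0.15 on the NPD arrays. Both genes were below 0 only on HPD 2 and HPD 4, and Msh3 was above its NPD mean on 4 of the 7 HPD arrays. In base excision repair the same quantity ran from -0.17 to 0.34 in HPD and from -0.21 to 0.18 in NPD.

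**Figure D3:**
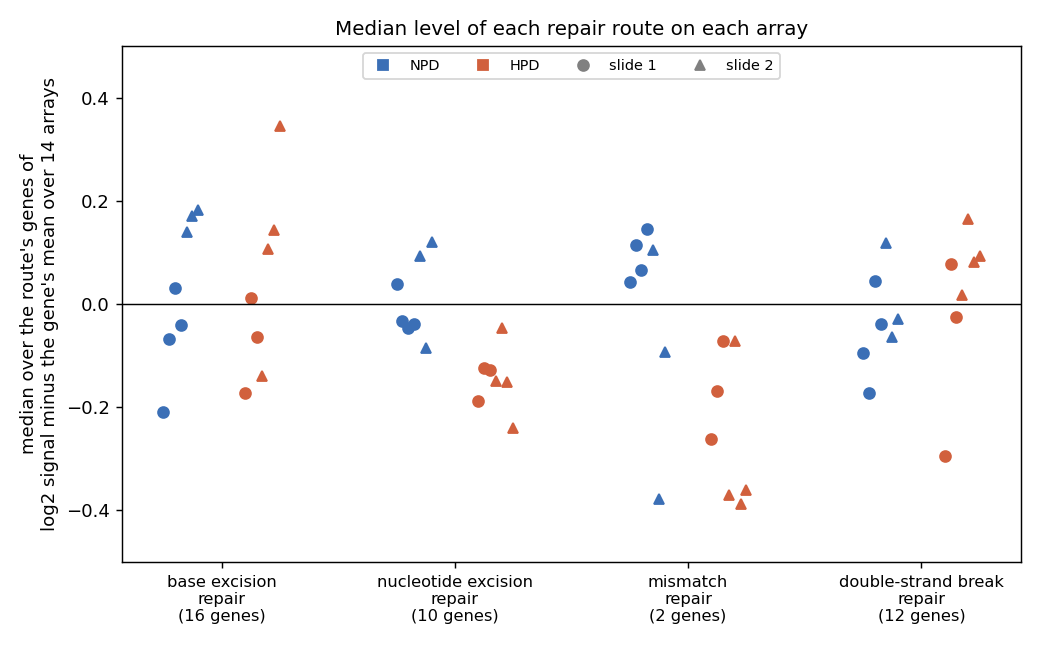
Median over the genes of each route of the log2 signal minus each gene's mean over the 7 NPD arrays (vertical axis). There is 1 point per array, in blue for NPD and orange for HPD. The axis label names 14 arrays, but 0 stands for the NPD mean of each gene. The 7 HPD arrays lie below 0 for the 10 genes of nucleotide excision repair, between -0.24 and -0.05. They also do for the 2 of mismatch repair, between -0.39 and -0.07, although Msh3 was above its NPD mean on 4 HPD arrays. They lie on both sides of 0 for base excision and double-strand break repair.

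Ddb1, the adaptor that works with Ddb2, not measured here, to find ultraviolet damage and serves a ubiquitin ligase, ranged from 3.78 to 4.14 in NPD (median 4.04) and from 3.12 to 3.93 in HPD (median 3.65). Of the HPD arrays 5 were below every NPD array, and HPD 4 was far below the rest. The log2 fold change was -0.37 ± 0.13 (SE; exact permutation test, p = 0.00291, limma q = 0.417). The gene was read by 1 spot per array, where most genes of the list had 2.

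Ercc8 (also CSA), which acts where RNA polymerase has stalled at a lesion, ranged from -1.23 to -0.23 in NPD (median -0.65) and from -1.73 to -0.89 in HPD (median -1.25). All 7 HPD arrays lay below the NPD mean, 4 of them below every NPD array, and the probe was well above background on 6 of the 7. The log2 fold change was -0.54 ± 0.18 (SE; exact permutation test, p = 0.0111, limma q = 0.417). Its partner Ercc6 (also CSB) had 0.27 with an SD of 0.81 among the HPD arrays, and the difference between Ercc8 and Ercc6 was -0.09 ± 0.49 in NPD and -0.90 ± 0.58 in HPD.

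Xab2, which binds Xpa and also acts in splicing, ranged from 1.97 to 2.62 in NPD (median 2.42) and from 1.55 to 2.35 in HPD (median 1.91). Its level differed between the slides: the NPD arrays of slide 2 were 0.49 lower than those of slide 1. The diet difference was -0.34 within slide 1 and -0.28 within slide 2, against a log2 fold change of -0.38 ± 0.15 over all arrays (SE; exact permutation test, p = 0.0274, limma q = 0.417).

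The other genes of this route had an unadjusted limma p of 0.05 or above. Ercc1, a subunit of the nuclease that cuts 5′ of the lesion, had -0.17 with all 7 HPD arrays below the NPD mean (exact permutation test, p = 0.0274). Xpc, which recognises lesions, had -0.17 and its partner Rad23b 0.15. Xpa, which checks the lesion, had -0.01, Ercc3, a helicase of the transcription factor TFIIH, 0.06, and Ercc5, the nuclease that cuts 3′ of the lesion, 0.04.

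Mismatch repair was represented by 2 genes. Pms2, a subunit of the endonuclease that nicks the new strand, ranged from 0.75 to 1.86 in NPD (median 1.64) and from 0.18 to 1.54 in HPD (median 1.03). The groups overlapped widely, with 2 HPD arrays below every NPD array, and the NPD arrays of slide 2 were 0.75 lower than those of slide 1. Its log2 fold change was -0.54 ± 0.23 (SE; exact permutation test, p = 0.0524, limma q = 0.425), and the values within the slides were -0.44 and -0.43. Msh3, which recognises loops of several bases, had 0.06.

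In double-strand break repair 4 of 12 genes had negative values and 8 positive, with a median of 0.02. Nhej1 (also XLF), which holds broken ends together for ligation, ranged from 0.74 to 1.48 in NPD (median 1.17) and from 0.33 to 1.21 in HPD (median 0.74). Of the HPD arrays 6 lay below the NPD mean and 4 below every NPD array. The log2 fold change was -0.41 ± 0.16 (SE; exact permutation test, p = 0.0268, limma q = 0.417), and -0.23 and -0.46 within slides 1 and 2.

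Nhej1 works with Xrcc4 and the ligase Lig4. Xrcc4 had a log2 fold change of -0.51 (exact permutation test, p = 0.0705), while Lig4 had 0.05. The difference between Nhej1 and Lig4 was 0.18 ± 0.21 (SD, n = 7) in NPD and -0.28 ± 0.27 in HPD, and that between Xrcc4 and Lig4 was -1.04 ± 0.26 in NPD and -1.60 ± 0.54 in HPD. The genes of the Ku dimer that first binds the ends, Xrcc6 and Xrcc5, had 0.28 (exact permutation test, p = 0.088) and 0.19, and the difference between them stayed close, at -0.33 ± 0.13 (Xrcc5 minus Xrcc6) in NPD and -0.41 ± 0.07 in HPD.

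**Figure D4:**
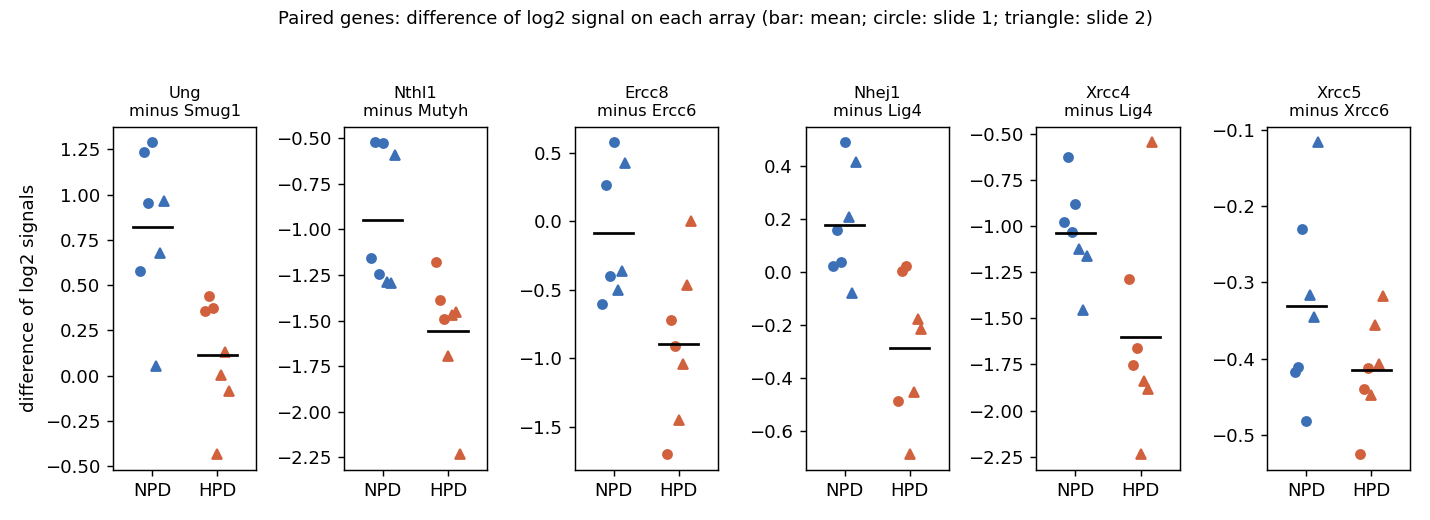
Difference of the log2 signals of 2 repair genes on the same array (vertical axis, its range differing between panels), 1 point per array with a bar at each group's mean, for 6 pairs. The differences of Nthl1 to Mutyh are lower on 6 of the 7 HPD arrays than on every NPD array, and those of Xrcc5 to Xrcc6 overlap.

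The genes that trim breaks and start recombination had an unadjusted limma p above 0.05. The Mre11 complex, which senses ends, gave 0.0040 for Mre11a, -0.08 for Rad50 and 0.18 for Nbn. Rad52, which anneals strands, had 0.03, and Brca2, which acts in recombination, 0.11. Brca1, an adaptor of recombination, was above background on 1 NPD array and no HPD array, and Atm, the kinase that signals breaks, on 3 NPD arrays and 1 HPD array, so that neither had a fold that could be read. Mgmt, which takes alkyl groups off guanine directly, had -0.13 and was well above background on all 14 arrays.

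A second list held other genes of the same routes. Of its 51 genes 45 were on the array, 20 with negative and 25 with positive values and a median of 0.02, and 6 (13.3%) had an unadjusted p below 0.05, all lower in HPD, against 5.48% of all genes lower and 6.05% higher at that p. Among them were Parp2, a sensor of strand breaks (-0.58), Rpa1 and Rpa2 of the protein that coats single strands (-0.37 and -0.47), and Rfc5 of the clamp loader (-0.73). Rpa3, of the same protein as Rpa1 and Rpa2, had 0.26 with a p above 0.05. Rfc1 to Rfc4 of the clamp loader lay between -0.30 and 0.01. Rpa2 had the smallest p of those named, at -0.47 ± 0.13 (SE; exact permutation test, p = 0.00175, limma q = 0.417), with all 7 HPD arrays below the NPD mean. Of 5 genes of damage signalling kinases and their partners, 1 was negative and 4 positive. Of 11 target genes of the damage response 3 were negative and 8 positive, where 35% of all genes were negative. Among them Gadd45a, a growth arrest gene, was higher by 0.44 (exact permutation test, p = 0.0478, limma q = 0.425).

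Markers of other cells were read beside these values. The summed level of 16 stem and cycling cell markers ranged from 8.36 to 9.36 in NPD and from 8.33 to 9.63 in HPD. It differed by 0.14 (exact permutation test, p = 0.553). Of the 16 genes 10 had positive and 6 negative values, and 2 of the negative ones, Top2a (-0.68) and Mcm6 (-0.56), had an unadjusted p below 0.05. Goblet cell markers differed by -0.27 in summed level (exact permutation test, p = 0.214). Of 7 measured, 5 had negative values, and Agr2 (-0.63) and Clca1 (-0.56) had an unadjusted p below 0.05. Immune cell markers by -0.17 (exact permutation test, p = 0.0676) and red blood cell markers by 0.59 (exact permutation test, p = 0.0187), from 5.24 to 6.06 in NPD and from 5.53 to 7.43 in HPD. The summed level of stromal and muscle markers ranged from 3.80 to 4.85 in NPD and from 3.59 to 4.53 in HPD, a difference of -0.17 (exact permutation test, p = 0.355). Of these 11 genes 3 had an unadjusted p below 0.05, Col1a1 (0.35) and Col3a1 (0.61, above background on 1 array) on the higher side and Myh11 (-0.48) on the lower, and Lum and Dcn were not well above background on any array. The part of these cells in the repair values was not tested.

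Each of the 8 genes had the same sign within both slides. The diet difference within slides 1 and 2 was -0.36 and -0.51 for Ung, -0.21 and -0.35 for Nthl1, 0.28 and 0.30 for Mutyh, -0.32 and -0.38 for Ddb1, and -0.55 and -0.44 for Ercc8. With slide as a term of the fit the 8 log2 fold changes were -0.44 (Ung), -0.28 (Nthl1), 0.29 (Mutyh), -0.35 (Ddb1), -0.31 (Xab2), -0.49 (Ercc8), -0.44 (Pms2) and -0.35 (Nhej1). None passed q below 0.1. The 8 genes were chosen by their p on these same arrays, so a kept sign here or in the settings below is no added evidence of a direction.

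The calls changed with the background correction. With normexp correction of the mean signal in place of the scanner software's subtraction, 7 of the 41 genes passed q below 0.1, all lower: Ung, Nthl1, Mpg, Ddb1, Xab2, Ercc1 and Nhej1, where 16.9% of all genes were called and 6.21% were called lower. On the values the authors normalized, with a term for slide, 8 passed, all lower (Ogg1, Ung, Nthl1, Ddb1, Xab2, Ercc8, Pms2 and Nhej1), with 10.5% of all genes called and 6.54% called lower. Normexp with a term for slide gave 9, all lower, with 28% of all genes called and 2805 of the 26276 called lower. A term for slide alone gave none, with 0.0913% of all genes called, while 10 of the 41 (24.4%) and 14.9% of all genes had an unadjusted p below 0.05. The 8 genes described above kept their sign in all 30 settings tried, but not their size. Ercc8 was -0.16 with normexp and -0.32 in the authors' values, and ran from -0.63 to -0.14 over the settings. Mutyh was 0.19 with normexp and 0.18 in the authors' values, and ran from 0.15 to 0.41. Its unadjusted p was not below 0.05 with normexp or in the authors' values, with or without a term for slide. Mutyh passed q below 0.1 in no setting.

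**Figure D5:**
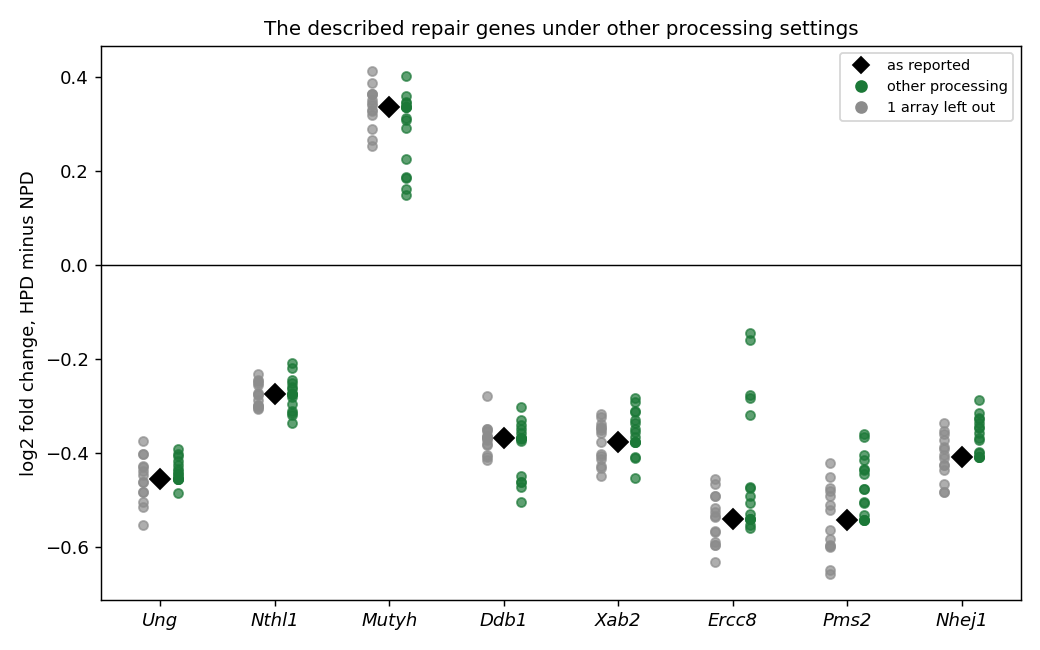
Log2 fold change (HPD minus NPD, vertical axis) of the 8 described genes as reported (diamonds), under other processing (green) and with 1 array left out (grey). The genes were chosen by their p on these same arrays, and the sign is the same for every point of a gene. The size varies: Ercc8 runs from -0.63 to -0.14, Mutyh from 0.15 to 0.41 and Ung from -0.55 to -0.37.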

How the data were processed

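RNA of 14 colonocyte samples (7 NPD, 7 HPD, groups from the sample labels) was read on 1-colour Agilent arrays. The authors deposited the scanner intensity of each spot, made with Feature Extraction 10.7.3.1, and their own normalized log2 values for each gene name. Of the study's samples 1 outlier per group was removed by the authors and is not analysed here. After removal of control spots and outlier-marked spots, log2 values of the background-subtracted signal were averaged over the spots of a probe and each array was centred on its median over probes. The diet effect was fitted by limma 3.58.1 (R 4.3.3) with no other term, eBayes moderation and Benjamini-Hochberg adjustment over 30367 probes, with q below 0.1 as the threshold. The brightest probe stood for a gene. The number of columns of other samples was 0. The fit was checked on simulated data, in which changes of 0.5, 1 and 2 on the log2 scale were called in 20.9%, 67.2% and 93.9% of cases among 30330 probes. Every listed gene is named, those with an unadjusted p below 0.05 are described in full, and the members and lists were chosen with earlier results of these data known. The number of arrays limits the precision. Exact tests used the 1716 splits of the arrays. Alternatives varied centring, normalization, background correction, signal column, filter, slide, replicate block, probe, variance model, threshold, the deposited values and single arrays. Some genes of the lists are not reported here.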

Additional observations from a re-analysis of the deposited data

Results flagged for a closer look

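The lowest HPD array stood apart from the other 6 in 4 of the 82 sets of 7 values tested by Dixon's criterion, where chance flags about 1 in 20, or 4.1 sets. In Ddb1 the log2 signal of HPD 4 was 3.12, with the next array at 3.62. HPD 1 was the lowest in Ercc5 (4.70, next 5.07), Rad52 (0.24, next 0.82) and Brca2 (1.38, next 2.09). HPD 1 was the lowest of the HPD arrays in 20 of the 41 repair genes and in 34.4% of all genes, NPD 1 the lowest of the NPD arrays in 15 and in 19.5%, and HPD 7 the highest of the HPD arrays in 15 and in 37.7%. Without HPD 1, 12 repair genes (29.3%) had an unadjusted p below 0.05 in place of 8, as 19.7% of all genes did in place of 11.5%, and no repair gene passed q below 0.1 while 131 of all genes did.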

How the results depend on the processing

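No gene of the 41 passed q below 0.1 in any setting other than normexp (7), slide block with normexp (9, adding Ogg1 and Pms2 to the 7) and the deposited table with slide block (8). These last 2 also had 32 of 41 genes (78%) below 0, against 20 (48.8%) as reported. Of all genes 41.9% and 43.8% were below 0 in these 2 settings, against 35% as reported. The number with an unadjusted p below 0.05, 8 as reported, was 13 with slide block and cyclic loess (31.7%, against 15.9% of all genes), a setting chosen after seeing the data, as was centring on the median over spots. Leaving out each array in turn gave 0 calls each time, 18 to 24 genes below 0, a median of -0.051 to 0.067 and 5 to 12 genes with an unadjusted p below 0.05, with 5 without NPD 2 or HPD 4 and 12 without HPD 1. NPD and HPD arrays share replicate numbers and were fitted as unpaired. The deviations of same-numbered arrays correlated at -0.09 to 0.39, above 0.1 in 6 of 7 pairs, and 1 of 7 arrays correlated best with its own number. The lowest value was that of replicate 4, the only number split between the slides. Slide and number are mixed in this way, so these values cannot decide whether the numbers pair the rats. The replicate block gave 14 genes with an unadjusted p below 0.05 (34.1%, against 21.4% of all genes) and no call. The 8 described genes, chosen by their p on these same arrays, kept their sign throughout. Among the others 21 changed sign in at least 1 setting, and the cause was not tested. Normexp gave Neil1 0.0374, Lig1 -0.10, Parp1 -0.10, Ercc3 -0.0810, Ercc5 -0.0945, Msh3 -0.0733, Mre11a -0.0035, Rad52 -0.0140, Brca2 -0.0004 and Atm 0.0480. The median pixel signal gave Neil1 0.0212, Lig1 -0.0521, Parp1 -0.0662, Ercc3 -0.0499, Ercc5 -0.0445, Msh3 -0.0458 and Atm 0.0122. Slide block with normexp gave Neil1 0.0284, Tdg -0.0093, Lig1 -0.15, Lig3 -0.0186, Parp1 -0.11, Fen1 -0.0805, Ercc3 -0.10, Ercc5 -0.12, Rad23b -0.0631, Msh3 -0.11, Xrcc5 -0.0151, Mre11a -0.0220, Nbn -0.0373, Rad52 -0.0364, Brca2 -0.0656 and Atm 0.0478. The deposited table gave Lig1 -0.0935, Parp1 -0.11, Ercc3 -0.0913, Ercc5 -0.0859, Rad23b -0.0004, Msh3 -0.0873, Lig4 -0.0311, Mre11a -0.0346 and Rad52 -0.0339, and with slide block Lig1 -0.12, Lig3 -0.0124, Parp1 -0.0962, Fen1 -0.0626, Ercc3 -0.0968, Ercc5 -0.10, Rad23b -0.0604, Msh3 -0.11, Mre11a -0.0432, Nbn -0.0384, Rad52 -0.0439 and Brca2 -0.0522. Slide block alone gave Lig1 -0.0147 and Mre11a -0.0244, with cyclic loess Lig1 -0.0286, Mre11a -0.0029 and Brca1 -0.12, and with centring on the 75th percentile Mre11a -0.0042. Cyclic loess gave Lig1 -0.0034, Xpa 0.0077 and Brca1 -0.20, quantile normalization Lig1 -0.0268, Parp1 -0.0023, Xpa 0.0148, Ercc3 -0.0216 and Brca1 -0.21, centring on the 75th percentile Apex1 0.0074 and Xpa 0.0008, and centring over spots Neil1 0.0145, Apex1 0.0619 and Xpa 0.0554. With 1 array left out, Apex1 ran from -0.12 to 0.13, Brca1 from -0.15 to 0.20, Lig1 from -0.0515 to 0.15, Lig4 from -0.0357 to 0.14, Mre11a from -0.0390 to 0.0684, Msh3 from -0.0208 to 0.17, Rad50 from -0.13 to 0.0124, Rad52 from -0.0213 to 0.14 and Xpa from -0.0884 to 0.0673. The values of Brca1 and Atm come from probes near background and are not folds that can be read.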
